A study of Mus musculus with 52 samples.

Results

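The loci described are those of Klf4, Klf2 and Klf5 in the mouse genome, in ChIP-seq peak lists of fibroblasts on their way to induced pluripotent stem (iPS) cells. Members were the peaks that shared at least 1 bp with a window around each gene, given in mm9 coordinates. The windows were chr4:55440000-55560000 for Klf4, chr8:74815000-74875000 for Klf2 and chr14:99650000-99750000 for Klf5, of 120, 60 and 100 kb. They held 359 of the 928298 peaks in 43 lists. Of these, 132 lay at Klf4 in 34 lists, 114 at Klf2 in 33 lists and 113 at Klf5 in 30 lists. All 132 Klf4 peaks were wholly inside their window, while 7 Klf2 peaks and 3 Klf5 peaks crossed an edge.

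Cells of 3 Mbd3 genotypes were profiled. Mbd3flox/- cells, with 1 floxed and 1 null allele, gave 18 of the lists and Mbd3-/- embryonic stem (ES) cells gave 4. Mbd3+/+ cells gave 21. The flox/- and +/+ series began as embryonic fibroblasts (MEF) carrying a transgene for doxycycline-induced Oct4, Sox2, Klf4 and Myc, and were collected before doxycycline, 4 and 8 days into it (2 ug/ml), and as iPS cells. Per the series' design text, the flox/- and -/- cells carried a complete GOF18 Oct4-GFP reporter and the +/+ cells were 1 clone with the GOF18 deltaPE-Oct4-GFP reporter, so reporter and genotype cannot be told apart. MEF grew in serum (DMEM with FBS) and the later stages in N2B27 with KSR and 2i/LIF, so medium and stage cannot be told apart either. The antibodies were against H3K4me3 (9 lists), H3K27ac (9), H3K27me3 (8), Oct4 (7), Mi2B (7) and Mbd3 (3, all from +/+ cells). No group had a second library, so the differences given are between single libraries and no test was possible. Read depth is unknown, and list lengths ran from 274 to 63888 peaks, so a missing peak means that none was detected. The score of a peak is the authors' own, the sources used here give no formula for it, and it was 50 or more in every list.

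Klf2, Klf4 and Klf5 are Krüppel-like zinc-finger factors that bind GC-rich and CACCC-type DNA. In mouse naive pluripotent cells they have overlapping roles in sustaining self-renewal, and Klf4 lies downstream of LIF and Stat3. Klf4 is also one of the induced reprogramming factors. Oct4 is a POU-domain factor of pluripotent cells, Mbd3 is a subunit of the NuRD deacetylase complex and Mi2B is that complex's ATP-dependent remodeller. H3K4me3 marks promoters, H3K27ac marks active promoters and enhancers, and H3K27me3 is the Polycomb mark. The transgene carries Klf4 coding sequence, and its part in reads mapped to Klf4 exons was not tested.

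Promoter sequence is shown for Klf4 and Klf2 because the promoter was the feature marked at these loci in every H3K4me3 list. The same was true of Klf5, but the promoter sequences used here had no entry for it. The 250 bases before the RefSeq starts of Klf4 and Klf2, in the GRCm38.p6 build, were matched by symbol. Klf4 lies on the minus strand at chr4:55532476-55532725 and Klf2 on the plus strand at chr8:72318812-72319061 of that build, which is not the build of the peaks. Capitals mark the GC box GGGCGG and the CACCC box, on either strand.
Klf4: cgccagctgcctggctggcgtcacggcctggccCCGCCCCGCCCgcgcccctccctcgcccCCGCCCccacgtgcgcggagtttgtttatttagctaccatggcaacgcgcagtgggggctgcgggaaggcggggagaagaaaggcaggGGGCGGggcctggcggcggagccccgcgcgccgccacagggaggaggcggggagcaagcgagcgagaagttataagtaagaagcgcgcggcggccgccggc
Klf2: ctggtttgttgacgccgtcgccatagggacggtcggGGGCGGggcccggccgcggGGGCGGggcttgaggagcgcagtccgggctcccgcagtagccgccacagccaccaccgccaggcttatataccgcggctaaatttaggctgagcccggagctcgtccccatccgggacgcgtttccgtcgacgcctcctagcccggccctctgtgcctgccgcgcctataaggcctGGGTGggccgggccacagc
The Klf4 stretch held 4 GC boxes, no CACCC box and 32 CpG, with a GC content of 74%. That of Klf2 held 2 GC boxes, 1 CACCC box and 29 CpG, with a GC content of 71.2%. Of all 32851 promoters of the same length, 32.7% held a GC box and 4.09% held at least 4, 52.0% held a CACCC box, and the median promoter held 6 CpG. A match is a description of the letters, not a site.

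The promoters of all 3 genes carried H3K4me3 in each of the 9 lists, fibroblasts included, and at Klf4 and Klf2 these regions lay at the gene positions used to set the windows. At Klf4 the merged H3K4me3 region was chr4:55538720-55547605 and covered the gene, taken as chr4:55540000-55545400. At Klf2 it was chr8:74842127-74848025. At Klf5, for which no gene position was set, it was chr14:99696741-99703722, and distances at Klf5 are given from the 1114 bp inside H3K4me3 peaks of all 9 lists. The widest H3K4me3 peak at Klf4 spanned 8.77 kb in flox/- MEF and 2.59 kb in +/+ MEF. On day 8 it spanned 3.48 kb in flox/- cells and 2.41 kb in +/+ cells. At Klf2 the day 8 values were 5.42 kb in flox/- cells and 1.51 kb in +/+ cells, and at Klf5 they were 3.44 kb in flox/- cells and 1.89 kb in +/+ cells. The +/+ day 8 list split its Klf2 promoter into 2 peaks, of 0.877 and 1.51 kb. H3K4me3 peaks covered 9.03% of the Klf2 window in flox/- and 3.98% in +/+ day 8 cells. The flox/- peaks were wider at all 3 promoters in MEF and on days 4 and 8. Peaks were also wider across the whole flox/- lists at those stages, with median widths of 1970.5, 1568 and 1496 bp in flox/- MEF, day 4 and day 8, against 1088, 867 and 1049 bp in +/+ cells. The part of that list-wide difference in the promoter widths was not tested.

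Away from the promoters, H3K4me3 was found in few places. A region 1.67 kb wide at chr4:55527034-55528700, beyond the 3′ end of Klf4, was held in 7 of 9 lists, all but +/+ MEF and flox/- day 8. A region at chr4:55492919-55494517 was held in flox/- day 4 cells and in both iPS lists, and in no +/+ list before iPS. In +/+ iPS cells alone, 2 further regions were listed at Klf4 and 4 at Klf5. The +/+ iPS list was also the longer of the iPS lists, with 24543 H3K4me3 peaks in flox/- iPS and 30381 in +/+ iPS cells.

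H3K27me3 had 6 peaks at Klf4, 1 at Klf2 and 0 at Klf5. In MEF its peaks covered 0.77% of the Klf4 window in flox/- and 3.22% in +/+ cells, and 1.61% of the Klf2 window in +/+ cells. The MEF lists covered 68.3 Mb (flox/-) and 62.8 Mb (+/+) of the genome, and whether the windows held less than their share was not tested. Of the Klf4 peaks, 1 came from flox/- MEF (score 52.7) and 3 from +/+ MEF (scores 56.2 to 165), and they lay far from the promoter between chr4:55473043 and chr4:55480222. The merged region chr4:55473043-55474472 was held in both MEF lists. This fibroblast stretch lies inside the domain that carried H3K27ac in iPS cells of both genotypes, described next. The other 2 Klf4 peaks were short ones of 123 and 220 bp at the promoter in +/+ iPS cells, with scores of 50.47 and 55.01. The Klf2 peak, chr8:74836998-74837964, was from +/+ MEF and lay inside the later acetylated domain of that gene. Lists of days 4 and 8 were short, with 567 peaks in flox/- day 4, 570 in +/+ day 4 and 939 in +/+ day 8 cells, so loss of the mark at those stages cannot be read from them.

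**Figure D1:**
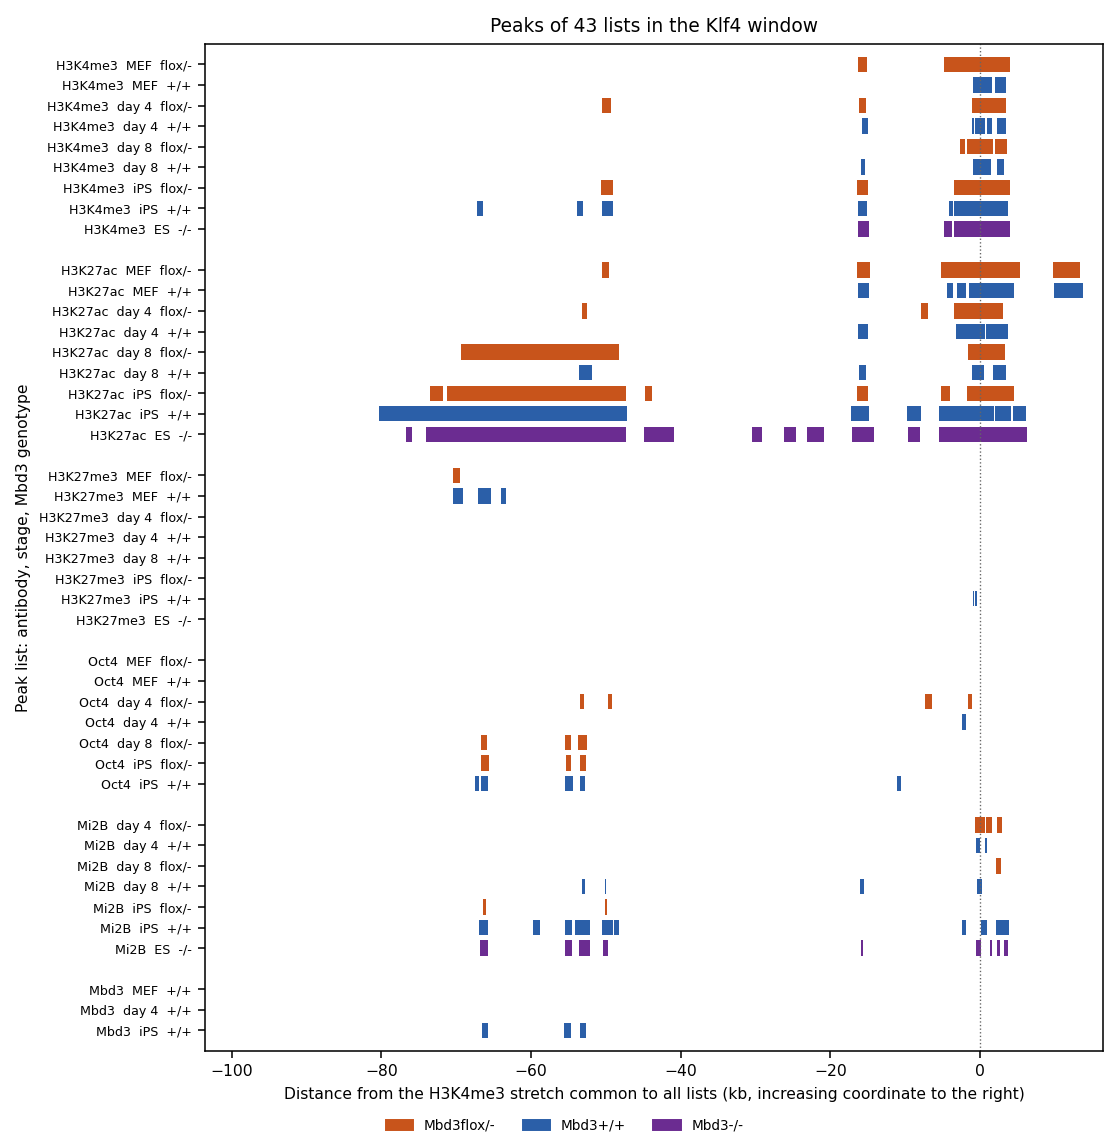
Peaks of the 43 lists in the Klf4 window (1 row per list, bars drawn to the width of each peak), by distance in kb from the middle of the longest stretch inside H3K4me3 peaks of all 9 lists. That middle lies inside the gene. The gene's 5′ end lies to the right, and most of its body and its 3′ side lie to the left. H3K27ac fills the distal domain at the left in flox/- day 8, flox/- iPS, -/- ES and +/+ iPS cells, and Oct4 peaks sit inside it.

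At Klf4 the widest of the 10 merged H3K27ac regions were the promoter and a distal domain beyond the 3′ end. The promoter region chr4:55538019-55549818 was acetylated in 9 of 9 lists. The distal domain, chr4:55463228-55496374, was 33.1 kb wide with its near edge 43.6 kb from the gene. In flox/- iPS cells it held 4 peaks, the widest of 11.2 kb, and in -/- ES cells its main peak was 26.8 kb wide. In +/+ iPS cells 1 peak spanned all of it, with a score of 3100.

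The distal domain differed between the genotypes on day 8. In flox/- day 8 cells 1 peak of 21.2 kb, chr4:55474124-55495296, had a score of 977. In +/+ day 8 cells the domain held 1 peak of 1.82 kb, chr4:55489875-55491698, with a score of 126. On day 4, flox/- cells had a 671 bp peak there at chr4:55490331-55491001, with a score of 50.1, and +/+ cells had none. The flox/- day 4 peak and the +/+ day 8 peak overlapped each other and the Oct4 site nearest to the gene. In MEF, flox/- cells had a 926 bp peak at another place in the domain, chr4:55492975-55493900, and +/+ cells had none.

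Acetylated regions outside the promoter and the distal domain were smaller. The region chr4:55526226-55529322, where H3K4me3 was also found, was acetylated in 7 of 9 lists, all but flox/- on days 4 and 8. A region on the other side of the gene, chr4:55553256-55557350, was acetylated in both MEF lists, with scores of 912 in flox/- and 352 in +/+ cells, and in no later list. Regions at chr4:55498632-55502663 (flox/- iPS and -/- ES) and chr4:55533824-55535597 (-/- ES and +/+ iPS) were acetylated in 2 lists each.

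At Klf2 a single block of merged H3K27ac peaks, chr8:74828959-74880831, was 51.9 kb wide, ran past the window and surrounded the gene. In fibroblasts it held the promoter peak, of 6.44 kb in flox/- MEF and 6.93 kb in +/+ MEF, and in +/+ MEF also a peak of 1.93 kb at the window's far edge. On day 4 the widest peak was 1.14 kb in flox/- cells and 2.76 kb in +/+ cells. On day 8 flox/- cells held 3 wide peaks of 8.23, 10.2 and 10.7 kb, the last at chr8:74852932-74863664 with a score of 2001. In +/+ day 8 cells there were peaks of 4.70 kb (score 826) and 5.16 kb (score 914) on the low-coordinate side and at the promoter, and the part beyond the gene held 1 peak of 832 bp, chr8:74857257-74858088, with a score of 56.9. In flox/- iPS cells the widest peak was 12.4 kb, against 1 peak of 39.5 kb that filled most of the block in +/+ iPS cells. The stretch beyond the gene was thus broadly acetylated on day 8 in flox/- cells and held a small, low-scoring peak in +/+ cells.

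The low-coordinate end of the Klf2 window followed another order. The region chr8:74823956-74828423 was acetylated in both MEF lists and in 7 of 9 lists, all but flox/- on days 4 and 8. The region chr8:74817860-74822172 was held in both MEF lists, -/- ES, +/+ day 8 and +/+ iPS cells. The region chr8:74814059-74817661, which crosses the window's edge, was held within the window in flox/- day 8, -/- ES and both iPS lists. In RefSeq order Klf2 stands between Ap1m1 and Eps15l1, and which of these regions belong to a neighbour cannot be read from the lists.

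**Figure D2:**
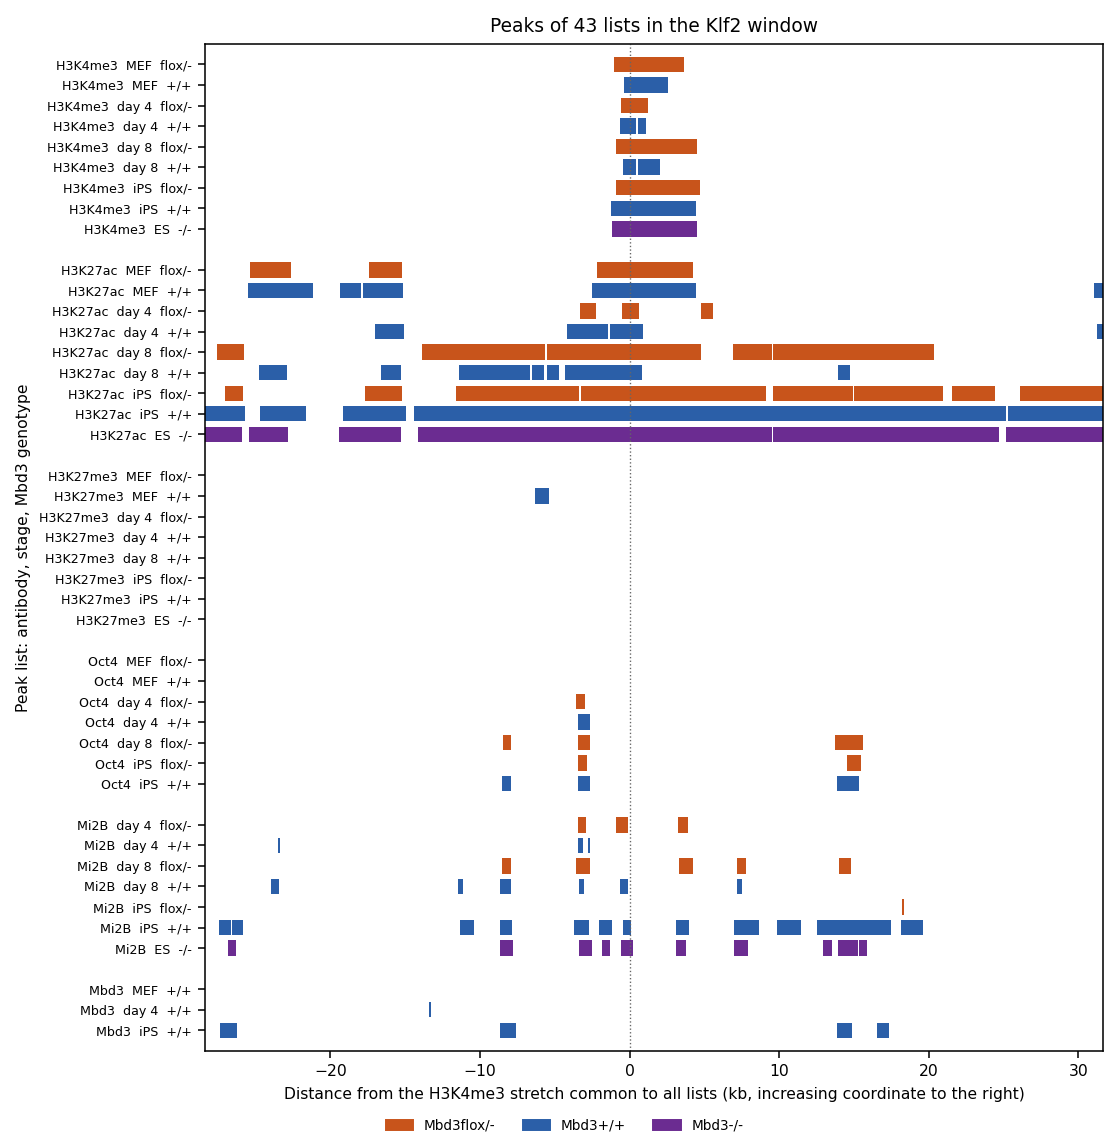
Peaks of the 43 lists in the Klf2 window (1 row per list, bars drawn to the width of each peak), by distance in kb from the middle of the longest stretch inside H3K4me3 peaks of all 9 lists. The site at 3.1 kb to the left holds Oct4 in all 5 lists taken after doxycycline, and H3K27ac to the right of the gene is broad from day 8 in flox/- cells and in iPS cells of both genotypes.

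At Klf5 H3K27ac lay around the promoter and in a wide domain at higher coordinates. The promoter region chr14:99696563-99717085 was acetylated in 9 of 9 lists, and its widest peak was 4.25 kb in flox/- iPS cells, 20.5 kb in -/- ES cells and 20.4 kb in +/+ iPS cells. The domain at chr14:99717968-99760612 was 42.6 kb wide and ran past the window. It held 4 peaks of 3.95 to 7.18 kb within the window in flox/- iPS cells, a single peak of 39.6 kb in -/- ES cells and a single peak of 41.1 kb in +/+ iPS cells.

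On day 8 the Klf5 domain was acetylated in flox/- cells and not listed in +/+ cells. The flox/- peaks were chr14:99734729-99742379 (7.65 kb, score 490) and chr14:99746693-99757454 (10.8 kb, score 627), and the +/+ list had no peak there. On day 4 flox/- cells had a peak of 637 bp in the domain and +/+ cells had none. Both MEF lists held a peak of low score at chr14:99723104-99724657 in flox/- MEF (83.7) and chr14:99723318-99724688 in +/+ MEF (84.9), at the first of the Oct4 sites described next. Further regions in at least 2 lists were chr14:99662600-99667859 (5 lists), chr14:99693143-99696332 (4 lists, both MEF lists among them), chr14:99672599-99679188 (3 lists), and chr14:99660230-99662326 and chr14:99668157-99669976 (2 lists each).

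**Figure D3:**
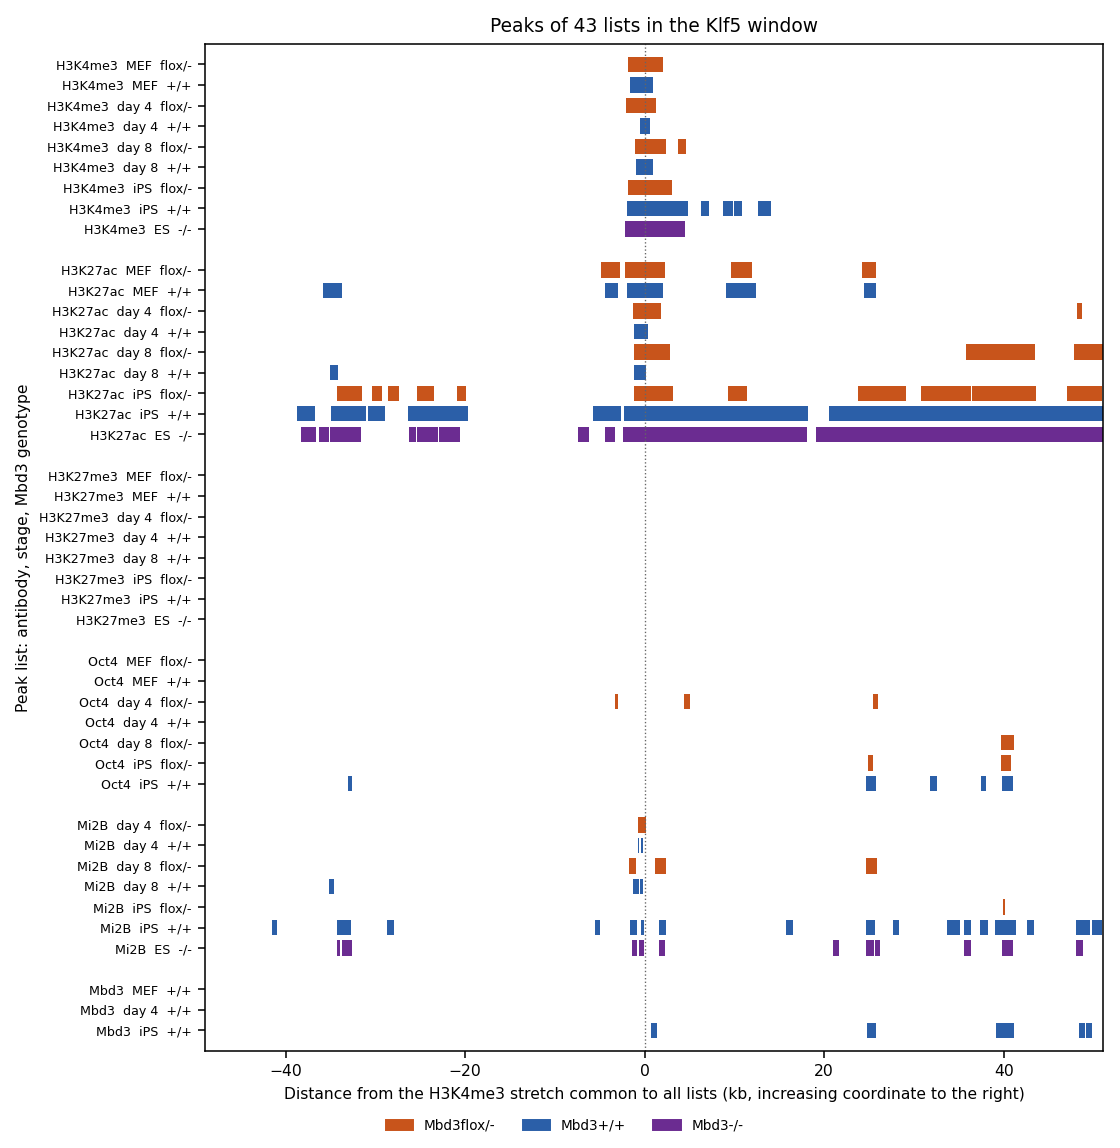
Peaks of the 43 lists in the Klf5 window (1 row per list, bars drawn to the width of each peak), by distance in kb from the middle of the stretch inside H3K4me3 peaks of all 9 lists. H3K27ac to the right of the promoter is listed on day 8 in flox/- and not in +/+ cells, and fills most of that side in -/- ES and +/+ iPS cells.

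The share of each window inside H3K27ac peaks, here called cover, puts these domains on 1 scale. At Klf4 the flox/- cover was 14.1% (MEF), 6.70% (day 4), 21.8% (day 8) and 29.6% (iPS), and that of -/- ES cells was 44.3%. The +/+ cover was 11.2% (MEF), 6.89% (day 4), 5.08% (day 8) and 40.6% (iPS). The Klf4 window was thus at its lowest on day 4 in flox/- and on day 8 in +/+ cells.
At Klf2 the flox/- cover was 19.0% (MEF), 4.95% (day 4), 56.1% (day 8) and 73.1% (iPS), and that of -/- ES cells was 90.7%. The +/+ cover was 26.5% (MEF), 12.2% (day 4), 25.8% (day 8) and 92.9% (iPS). Both genotypes were lowest on day 4, and on day 8 flox/- cells stood above their MEF value while +/+ cells were back near theirs.
At Klf5 the flox/- cover was 10.4% (MEF), 3.79% (day 4), 14.9% (day 8) and 36.4% (iPS), and that of -/- ES cells was 66.7%. The +/+ cover was 12.3% (MEF), 1.51% (day 4), 2.23% (day 8) and 68.4% (iPS). The Klf5 window in +/+ cells had its acetylation in MEF and iPS cells, with little on either day of induction.

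On day 8 cover was higher in flox/- than in +/+ cells at all 3 loci, by 16.7 percentage points at Klf4, 30.3 at Klf2 and 12.7 at Klf5. Windows of the same length tiled over the genome, with H3K27ac in at least 1 list, give the background. Their median flox/- cover on day 8 was 0% at each of the 3 lengths, and a window without flox/- cover cannot show a lead. A lead of 10 points or more for flox/- on day 8 was found in 4.61% of 16810 windows of Klf4's length, in 6.85% of 28991 of Klf2's length and in 5.15% of 19513 of Klf5's length. All 3 loci had such a lead, and 98.0%, 98.9% and 96.2% of the windows had a lower difference than Klf4, Klf2 and Klf5. The 10-point cut was chosen with earlier results of these data known. At Klf5 the lead fell below it, to 9.41 points with 50% of each peak required inside the window. With windows 10 kb shorter at both ends it was 8.78 points. On day 4 none of the loci had a lead of 10 points. The difference was -0.19 points at Klf4, -7.24 at Klf2 and 2.28 at Klf5, and 0.535%, 1.59% and 0.784% of windows of those lengths had such a lead.

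The day 8 lead went with wider peaks, not with more of them at Klf4 and Klf2. On day 8 Klf4 held 2 H3K27ac peaks in flox/- and 4 in +/+ cells, Klf2 held 5 in flox/- and 7 in +/+ cells, and Klf5 held 3 in flox/- and 2 in +/+ cells. With each peak replaced by 500 bp around its midpoint, cover counts peaks by construction and adds nothing to these counts. The difference was then -0.83 points at Klf4, -1.67 at Klf2 and 0 at Klf5. The 10.8 kb flox/- peak that crosses the edge of the Klf5 window has its midpoint outside it and was not counted. The flox/- day 8 list was the shorter, with 21237 peaks in flox/- and 39463 in +/+ cells, but its peaks were wider, with a median of 3032 bp in flox/- and 1909 bp in +/+ cells. The 21.2 kb Klf4 peak was wider than 99.0% of its own list. The part of list-wide peak width in the day 8 differences was not tested.

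In iPS cells the order was the other way round. Cover was lower in flox/- than in +/+ iPS cells by 11.0 points at Klf4, 19.8 at Klf2 and 32.0 at Klf5. A deficit of 10 points or more in flox/- iPS cells was found in 9.96%, 12.1% and 10.4% of windows of the lengths of Klf4, Klf2 and Klf5. A difference lower than that of the locus was found in 8.79% of windows for Klf4, 4.24% for Klf2 and 0.44% for Klf5. The flox/- iPS list was shorter and its peaks narrower, with 28333 peaks of median width 1696 bp in flox/- and 36285 of median 2265 bp in +/+ iPS cells, and the part of that in the deficit was not tested. Even so, both iPS lists covered more of these windows than of nearly all others. Klf4 stood above 99.0% of windows in flox/- iPS and 98.1% in +/+ iPS cells, and Klf5 above 99.4% in flox/- and 99.8% in +/+ iPS cells. At Klf2 the shares rounded to 99.97% in flox/- and 99.96% in +/+ iPS cells.

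**Figure D4:**
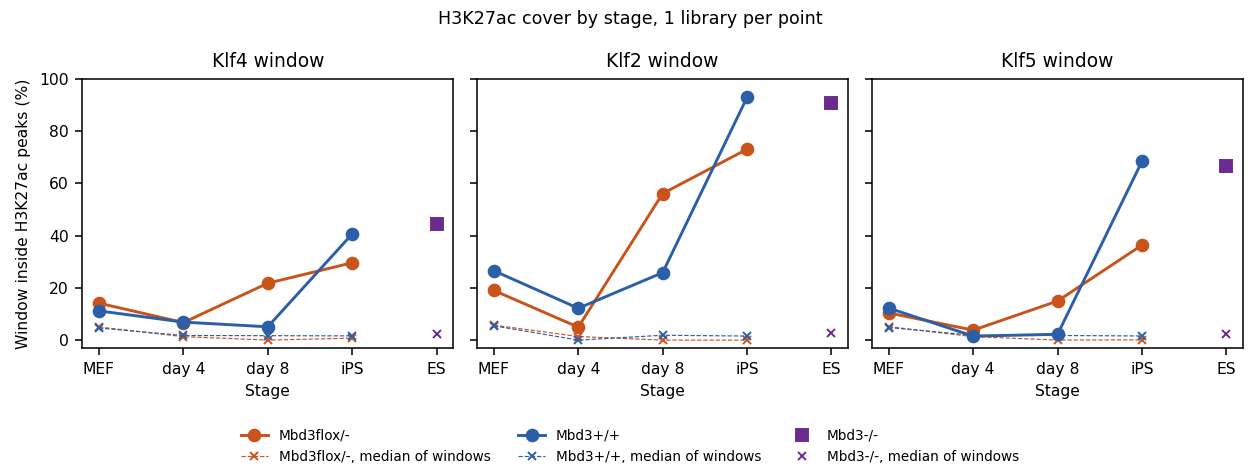
Percent of each window inside H3K27ac peaks by stage, with 1 library per point (filled symbols). Crosses and dashed lines give the median over genome windows of the same length that had H3K27ac in at least 1 list. Flox/- lies above +/+ on day 8 and below it in iPS cells at all 3 loci, while that median stays under 6% in every list.

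Merged H3K27ac regions of the 2 genotypes, counted without regard to width, gave less contrast. On day 4, 4 of 11 regions in the windows were held in flox/- alone (38.0% over the genome), 3 of 11 in +/+ alone (19.8%) and 4 of 11 in both (42.2%). On day 8, 4 of 14 were held in flox/- alone (15.1%), 4 of 14 in +/+ alone (51.9%) and 6 of 14 in both (33.0%). The flox/- regions of day 8 were at Klf2 and Klf5, with 2 each, and the distal Klf4 domain counts as held in both because of the 1.82 kb +/+ peak.

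Oct4 was listed at none of the 3 windows in MEF, where the lists held 489 peaks in flox/- and 274 in +/+ cells. On day 4 there were 4 peaks at Klf4, 1 at Klf2 and 3 at Klf5 in flox/- cells, against 1, 1 and 0 in +/+ cells. On day 8 flox/- cells had 3, 3 and 1, and the +/+ day 8 Oct4 list was not analysed here. In iPS cells flox/- had 3, 2 and 2 and +/+ had 5, 3 and 5. The day 4 peaks were mostly not shared, here as over the genome. Of 9 merged day 4 regions, 7 were held in flox/- alone (59.7% over the genome), 1 in +/+ alone (19.4%) and 1, at Klf2, in both (20.9%). Some day 4 peaks overlapped the promoter H3K4me3 regions merged over all stages and were in no later Oct4 list. At Klf4 these were chr4:55541912-55542496 in flox/- (score 126) and chr4:55541101-55541658 in +/+ cells (score 87.1), and at Klf5 chr14:99703298-99703931 in flox/- cells (score 87.7). The flox/- peak at Klf4 overlapped H3K4me3 peaks of day 4 itself. The +/+ peak at Klf4 and the flox/- peak at Klf5 overlapped no day 4 H3K4me3 peak of either genotype. The flox/- day 4 list was the longer, with 33755 peaks in flox/- and 16785 in +/+ cells.

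Oct4 sites held in both iPS lists were taken as the sites of pluripotent cells, as +/+ iPS peaks that overlapped a flox/- iPS peak. Over the genome there were 2840 and in the windows 7. At Klf4, 3 sites lay in the distal domain. They were chr4:55476808-55477789 (62.2 kb beyond the gene; score 321 in flox/- and 468 in +/+ iPS cells), chr4:55487992-55489094 (50.9 kb; 174 in flox/- and 474 in +/+) and chr4:55490009-55490788 (49.2 kb; 210 in flox/- and 638 in +/+). At Klf2 they were chr8:74839870-74840678 (at -2.73 kb from the position taken for the gene; 182 in flox/- and 416 in +/+) and chr8:74857190-74858697 (at 14.9 kb; 237 in flox/- and 794 in +/+). At Klf5 they were chr14:99723578-99724688 (25.2 kb from the promoter mark; 72.0 in flox/- and 136 in +/+) and chr14:99738715-99739970 (40.4 kb; 172 in flox/- and 442 in +/+).
Apart from the first Klf5 site, above 74.3% of its list, each scored above at least 97.2% of the peaks in the +/+ iPS list. That list held 11881 peaks and the flox/- iPS list 3331. The sites were picked for a peak in both, and their rank among the 2840 shared sites was not computed. The order differs between the lists: the highest-scoring Klf4 site was the first in flox/- and the third in +/+ iPS cells. None of the 7 sites lay in an H3K4me3 promoter region.

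The Klf2 site near the gene was the one of the 7 that held Oct4 on day 4 in both genotypes, with scores of 171 in flox/- and 549 in +/+ cells, which stood above 80.0% and 96.0% of their lists. On day 8 its flox/- score was 533. At the other sites, flox/- day 4 cells held Oct4 at the third Klf4 site (score 119) and the first Klf5 site (58.6), and +/+ day 4 cells at none. In all, 3 of the 7 sites were held in flox/- day 4 (39.1% of the 2840) and 1 of 7 in +/+ day 4 cells (38.0%). On day 8, 6 of 7 were held in flox/- cells (83.7%), all but the first Klf5 site. These shares are near the background on day 8 in flox/- and on day 4 in flox/- cells, and with 7 sites the lower +/+ count on day 4 differs from the flox/- count by 2 sites.

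H3K27ac at the 7 sites followed the domains. In MEF 1 of 7 was acetylated in flox/- (18.1% over the genome) and 1 of 7 in +/+ cells (19.1%), the first Klf5 site in both. On day 4 flox/- cells had 2 of 7 (35.8%), the third Klf4 site and the near Klf2 site, and +/+ cells had 1 of 7 (30.7%), the near Klf2 site. On day 8 flox/- cells had 6 of 7 (51.8%) and +/+ cells 3 of 7 (45.7%). All 7 were acetylated in flox/- iPS (59.5%), -/- ES (67.1%) and +/+ iPS cells (75.0%). The 3 sites acetylated on day 8 in flox/- alone were the first and second of Klf4 and the second of Klf5. All 3 also held Oct4 on day 8 in flox/- cells, as did the 3 sites acetylated in both genotypes and 83.7% of the 2840 sites. The +/+ day 8 Oct4 list was not analysed here, so the genotypes cannot be compared on this. The first Klf5 site ran against the rest: it was acetylated in MEF of both genotypes, in neither genotype on days 4 and 8, and again in iPS cells.

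**Figure D5:**
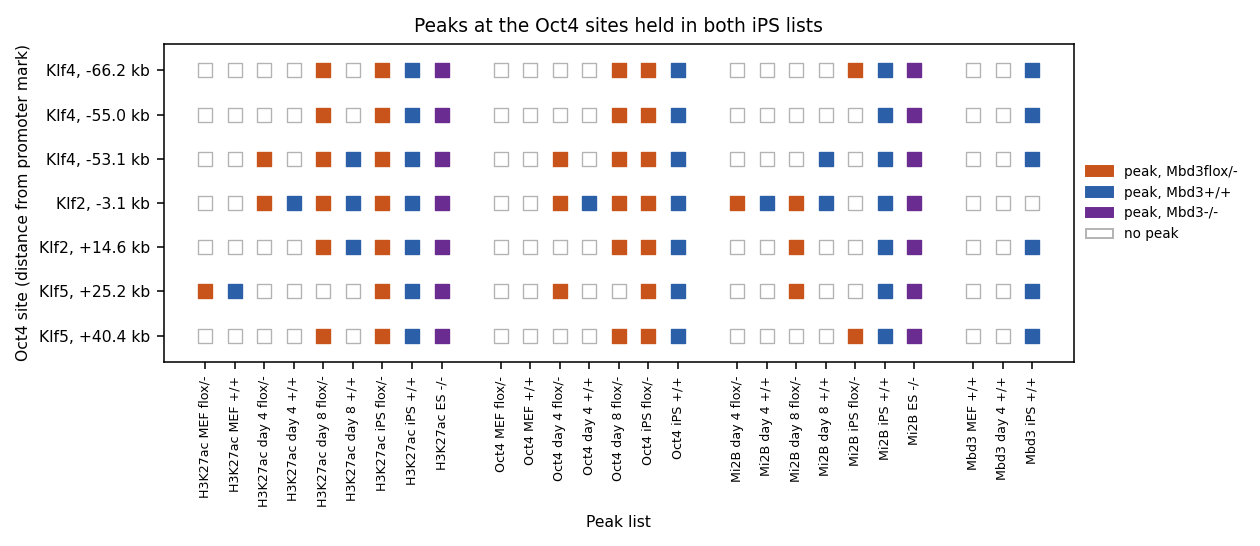
Peaks (filled) or none (open) at the 7 Oct4 sites held in both iPS lists, by list of H3K27ac, Oct4, Mi2B and Mbd3, with sites named by locus and distance in kb from the promoter mark. The near Klf2 site is filled for H3K27ac, Oct4 and Mi2B on day 4 in both genotypes and is open for Mi2B in flox/- iPS cells, and every site is filled for Mi2B in -/- ES and +/+ iPS cells.

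Mi2B lay at the promoters of Klf4 and Klf5 on day 4 in both genotypes, and at every one of the 7 Oct4 sites in -/- ES and +/+ iPS cells. On day 4, Mi2B peaks were found in the promoter region of Klf4 with scores of 155 in flox/- and 135 in +/+ cells, and of Klf5 with scores of 93.3 in flox/- and 64.7 in +/+ cells. In the Klf2 promoter region flox/- day 4 cells had 2 peaks, chr8:74842409-74843236 (score 114) and chr8:74846607-74847254 (score 73.6), and +/+ day 4 cells had none. In the Klf4 promoter region, the merged element chr4:55542830-55545177, which lies inside the gene, was held in 5 of 7 Mi2B lists. In that of Klf5, the merged element chr14:99697194-99699067 was held in 6 of 7. Neither of these 2 elements was held in any Oct4 or Mbd3 list. Past the 5′ end of Klf4, the promoter region also held chr4:55545646-55547376, in 4 Mi2B lists, flox/- day 8 among them (score 77.0). The Klf5 region also held chr14:99699599-99701285, in 3 Mi2B lists and the +/+ iPS Mbd3 list (score 54.4). Day 4 Oct4 peaks that overlapped the 2 promoter regions are given above. At the 7 Oct4 sites, Mi2B on day 4 was found at 1 in flox/- (15.7% over the genome) and 1 in +/+ cells (12.8%), the near Klf2 site in both. On day 8 it was at 3 of 7 in flox/- (42.7%), both Klf2 sites and the first Klf5 site, and at 2 of 7 in +/+ cells (23.1%), the third Klf4 site and the near Klf2 site. The day 8 counts are close to their backgrounds. With a score of at least 100 required, 2 of the 7 remained in flox/- and 0 in +/+ cells. With 50% of the site covered, 3 remained in flox/- and 1 in +/+ cells.

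In iPS cells Mi2B differed with the length of the lists. The flox/- iPS list held 2, 1 and 1 peaks at Klf4, Klf2 and Klf5, and the +/+ iPS list 9, 12 and 17. Over the genome these lists held 3462 peaks in flox/- and 26992 in +/+ iPS cells, so depth or enrichment and genotype cannot be told apart. At the 7 sites Mi2B was at 2 in flox/- iPS (24.5%) and at 7 in +/+ iPS cells (79.2%). In -/- ES cells it was at 7 of 7 (57.9%), with 9, 10 and 11 peaks in the windows of Klf4, Klf2 and Klf5, and its scores at the sites ran from 84.4 at the first Klf5 site to 377 at the far Klf2 site. Mi2B peaks were therefore listed at every one of these sites in cells labelled as lacking Mbd3.

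Merged Mi2B regions in the windows were few, and the share held in both genotypes stood above that over the genome on day 4 and nearer to it on day 8. On day 4, 3 of 9 in the windows were held in flox/- alone (44.3% over the genome), 2 of 9 in +/+ alone (38.6%) and 4 of 9 in both (17.1%). On day 8, 5 of 18 were held in flox/- alone (26.8%), 9 of 18 in +/+ alone (57.4%) and 4 of 18 in both (15.8%).

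Mbd3 itself was profiled in +/+ cells. Its MEF list held no peak at the loci and its day 4 list held 1, at Klf2 (127 bp, score 66.0), in lists of 1177 and 1944 peaks. The +/+ iPS list held 3 peaks at Klf4, 4 at Klf2 and 5 at Klf5. At the Oct4 sites it held 6 of 7 (48.9%), all but the near Klf2 site. Scores were low at most of them, 66.4, 101 and 50.1 at Klf4, 68.9 at Klf2, and 86.3 and 169 at Klf5, and with a score of at least 100 required, 2 of the 7 remained.

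Merging the Oct4, Mi2B and Mbd3 peaks gave 14 elements at Klf4, 13 at Klf2 and 20 at Klf5, of which 5, 3 and 3 were held in at least 5 of the 17 lists. The busiest was the near Klf2 element, chr8:74839636-74840831, held in 11 lists, with Oct4 in all 5 lists after doxycycline and Mi2B in 6 of 7, flox/- iPS being the exception. It was acetylated in 7 of 7 lists from day 4 on and, by 1 bp overlap, in neither MEF list, and it held no Mbd3 peak. The MEF promoter peaks of H3K27ac began just past its end, at chr8:74841161 in flox/- MEF (score 1499) and chr8:74840855 in +/+ MEF (score 3100). At Klf4 the 3 elements with an Oct4 site were chr4:55476562-55477833 (7 lists), chr4:55487936-55489094 (6 lists) and chr4:55489454-55491428 (8 lists). The fourth distal element, chr4:55493045-55494432, was held in 5 lists, 4 of Mi2B and the flox/- day 4 Oct4 list, and coincides with the distal H3K4me3 region. It held no Oct4 peak in either iPS list.
At Klf2 the elements beside the near one were chr8:74834667-74835767 (7 lists) and chr8:74855852-74860842 (7 lists), the span of 1 +/+ iPS Mi2B peak of 4.99 kb whose score of 596 stood above 99.9% of its list. The first of these held Oct4 on day 8 in flox/- and in +/+ iPS cells, and was not in the flox/- iPS Oct4 list. At Klf5 the distal elements were chr14:99723524-99725192 (7 lists) and chr14:99737975-99740290 (7 lists). The element at the second Klf5 site carried its locus's highest Mi2B score in -/- ES (258) and +/+ iPS cells (417) and its highest Mbd3 score (169). The other 36 elements were each held in 4 lists or fewer.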

How the data were processed

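ChIP-seq peak lists of 43 libraries were used, 1 list per library; the 9 input libraries of the 52 samples have no list here. Each peak's value is a score deposited by the authors, used to describe or filter peaks within a list. The submitters' processing notes name MACS 1.4.1, Bowtie 0.12.5, CASAVA 1.8.2 and the mm9 build. Settings and the control used are not given in the sources used here. A score of 3100 recurs as the highest and may be a ceiling. Groups were taken from the sample titles. For 6 +/+ samples, 4 of them with a list (day 4 H3K27me3, Mbd3 and Mi2B, day 8 Mi2B), another label gives a different day, and the title was followed. The +/+ day 8 H3K27me3 label says that the record duplicates one of the same biological sample.

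From the lists, peaks per window, the percent of window bases inside peaks, and merged regions (1 bp overlap) were computed. Background shares came from all windows of the same length with H3K27ac in any list, from all shared iPS Oct4 sites, or from all merged regions. Positions are 1-based. The windows, the members, the 10-point threshold and the elements described (held in at least 5 of 17 Oct4, Mi2B and Mbd3 lists) were chosen with earlier results of these data known. Alternatives were a score of at least 100, 50% overlap, 250 bp either side of each midpoint, windows 10 kb shorter at both ends, equal numbers of top peaks, and merging across 500 bp. Running them for MEF and iPS cells, and all alternatives for the Oct4 sites, were added after the data were seen. Overlap and cover were tested on simulated data and the counts checked against bedtools 2.31.1, with 14670 overlapping peaks of the flox/- day 8 H3K27ac list by both. Python 3.11.15, numpy 2.4.6, pandas 2.3.3 and matplotlib 3.10.9 were used. Cell types and the Mbd3 genotype were not checked in these peak lists.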

Additional observations from a re-analysis of the deposited data

Results flagged for a closer look

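In the H3K27ac lists the genotypes moved in opposite directions between stages in 4 cases, given in percentage points of window cover. With 1 library per genotype and stage, the differences were not tested. At Klf4, cover changed between MEF and day 8 by 7.62 points in flox/- and by -6.10 in +/+ cells, a difference of 13.7. Between days 4 and 8 it changed by 15.1 points in flox/- and by -1.80 in +/+ cells, a difference of 16.9. At Klf2, cover changed between MEF and day 8 by 37.1 points in flox/- and by -0.72 in +/+ cells, a difference of 37.8. At Klf5 it changed over the same stages by 4.54 points in flox/- and by -10.02 in +/+ cells, a difference of 14.6.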

How the results depend on the processing

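Requiring a score of at least 100 left 85 peaks at Klf4, 69 at Klf2 and 53 at Klf5, with 10, 5 and 6 elements; merging across 500 bp gave 8 elements at Klf4. The cover differences on day 8 and in iPS cells (flox/- minus +/+) kept their direction at a score of at least 100, with 50% overlap, with shorter windows and with equal numbers of top peaks, where the day 8 values were 20.3, 39.7 and 14.9 points at Klf4, Klf2 and Klf5. Shorter windows moved Klf2 to 45.5 points on day 8 and -12.7 in iPS cells. The Klf5 lead on day 8 was 9.41 points with 50% overlap and 8.78 with shorter windows, under the 10-point threshold. With fixed widths of 500 bp, cover counts peaks by construction: on day 8 it was -0.83 at Klf4, -1.67 at Klf2 and 0 at Klf5, in iPS cells 1.25, 1.67 and 2, on day 4 0.42, 0 and 0.5, and in MEF -0.42 at Klf4. The small Klf4 day 4 difference of -0.19 points was -0.44 at a score of at least 100 and -1.56 with equal top peaks; the cause was not tested. Read depth is unknown and limits every missing peak. No paired analysis was possible because each group has 1 library.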
